A study of Mus musculus with 12 samples.

Results

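The potassium channel genes of the mouse were described in whole embryos of 2 mutant lines. They were taken as every symbol, in both tables of counts, that starts with *Kcn*, goes on with lower-case letters and ends in a number. The rule found 92 genes of 23420 in all, and it used no measured value. By symbol, 40 encode voltage-gated pore subunits, 15 inward rectifiers, 14 two-pore channels, 8 calcium-activated channels and their relatives, and 15 auxiliary subunits, which form no pore themselves.

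Potassium channels let potassium ions leave or enter a cell along their gradient and so set the resting membrane potential and end electrical signals. Voltage-gated channels open on depolarization and repolarize neurons and muscle, inward rectifiers and two-pore channels hold the resting potential, and calcium-activated channels couple potassium flow to calcium inside the cell. Auxiliary subunits change the gating or the surface level of the pore subunits. In the embryo these genes are best known from neurons, glia, heart, skeletal and smooth muscle, and blood cells.

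RNA came from whole embryos at day 12.5 of gestation (E12.5), each embryo giving 1 library. In the *Carm1* line (strain C57BL/6) 3 embryos were homozygous for the *Carm1* KO allele, tm1Mtb, which deletes exons 2 and 3 (*Carm1* KO/KO), and 3 were wild type for *Carm1*. In the *Pax3* line (strain labelled mixed) 3 embryos were homozygous for the null allele Sp2H, known as splotch (*Pax3* Sp2H/Sp2H), and 3 were wild type for *Pax3*. *Carm1* encodes an arginine methyltransferase and *Pax3* a transcription factor of the neural crest, the dorsal neural tube and muscle precursors. All embryos came from intercrosses of heterozygotes and lack or keep the gene in every tissue, and the litter of each embryo is not given. The study asked whether the changes of expression in *Carm1* mutants resemble those in *Pax3* mutants.

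Total counts lay between 17183344 and 23518692 per library, and log2 levels of replicates correlated at 0.989 to 0.995. *Carm1* itself was at 71.2, 69.2 and 76.1 counts scaled to library size (CPM) in KO/KO embryos and at 151, 145 and 137 CPM in wild type (log2 fold change -1.0, SE 0.050), and *Pax3* at 22.4, 22.0 and 18.1 against 30.9, 24.9 and 28.3 CPM (-0.43, SE 0.095). In each line every mutant library lay below every wild-type library for the mutated gene. Y-linked counts marked 1 library of the *Carm1* line (wild-type replicate 3) and 3 of the *Pax3* line (wild-type replicates 2 and 3, Sp2H/Sp2H replicate 3).

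The part of the gene that makes a protein a potassium channel is short. Pore subunits carry the potassium channel signature, a run of 5 residues that lines the selectivity filter. It was searched in frame in the longest coding sequence of each gene of the GENCODE M21 annotation (GRCm38) as codons for threonine or serine, any residue, glycine, then tyrosine, phenylalanine or leucine, and glycine. It was absent from all 15 auxiliary genes, present once in all 15 inward rectifier and all 8 calcium-activated genes, and present at 2 places in all 14 two-pore genes, whose proteins have a pair of pore domains. Of the voltage-gated genes 38 held it once and 2, *Kcna6* and *Kcnh2*, held a second match. Among the 21469 protein-coding genes that are no members, 5.08% hold such a run, so a match alone does not mark a channel.

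The windows below, of 27 bases, are from genes whose level changed in 1 of the lines or both, and are shown as examples of a calcium-activated, a delayed rectifier and a two-pore channel and of the ether-a-go-go family (*Kcnh*). The capitals mark the 5 codons of the signature.
*Kcnma1*: atgtctACAGTGGGTTATGGGgacgtt
*Kcna2*: atgacaACTGTAGGCTATGGAgacatg
*Kcnh1*: ctcaccAGTGTGGGCTTTGGTaacatt
*Kcnh4*: ctcaccAGTGTAGGCTTCGGCaacgtg
*Kcnh6*: ctcactAGTGTGGGCTTCGGCaatgtg
*Kcnk5*, pore 1: atcaccACCATCGGTTATGGCaatgtg
*Kcnk5*, pore 2: atctccACCATTGGCTTTGGGgacttt

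All of these lie in coding exons. In GRCm38 the window of *Kcnma1* is at chr14:23528407-23528433 (minus strand, exon 8 of 31) and that of *Kcna2* at chr3:107105218-107105244 (plus strand, exon 3 of 3). In the *Kcnh* family, the window of *Kcnh1* lies at chr1:192337748-192337774 (plus strand), that of *Kcnh4* at chr11:100750287-100750313 (minus strand) and that of *Kcnh6* at chr11:106019070-106019096 (plus strand). The second window of *Kcnk5* lies at chr14:20144642-20144668 (minus strand), while the first is split by an intron.

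Whole embryos expressed most of the channel genes at low levels. In each line 77 of the 92 genes had enough counts to be tested, 75 in both lines and 13 in neither. The genes left out reached at most 18 counts in a library of the *Carm1* line and 13 in the *Pax3* line, and *Kcna10*, a voltage-gated gene, was at 0 counts in all 12 libraries, which allows up to 3 counts in a library. Levels of different genes were compared per kilobase of exon, as the mean ± SD over the 6 wild-type libraries of both lines. On this scale voltage-gated genes made up 37.7% ± 0.976 of the summed level of all channel genes, auxiliary subunits 24.9% ± 1.35, calcium-activated genes 14.5% ± 0.698, two-pore genes 13.5% ± 0.653 and inward rectifiers 9.46% ± 0.350. The spreads of calcium-activated and two-pore genes overlapped. Library by library, calcium-activated genes lay above two-pore genes except in wild-type replicate 3 of the *Pax3* line (15.4 against 16.1 CPM per kilobase).

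*Kcnh2*, the channel that repolarizes the heart muscle cell, led the voltage-gated genes at 7.86 ± 0.543 CPM per kilobase. *Kcna6*, a delayed rectifier of neurons, was at 4.44 ± 0.684, but 40.4% of its exon length lies opposite the antisense gene *Gm26673*, and whether reads were counted by strand is not stated. Among auxiliary subunits *Kcnmb4*, the neuronal subunit of the calcium-activated BK channel, was at 7.74 ± 0.697, above *Kcnab2* (4.75 ± 0.165), a beta subunit of voltage-gated channels, and *Kcnip1* (3.17 ± 0.405), which binds the A-type channels. The level of *Kcnmb4* has the same limit as that of *Kcna6*, since 49.3% of its exon length lies opposite *Kcnmb4os2* and 26.0% opposite *Kcnmb4os1*. *Kcnn4*, the intermediate-conductance channel of red and white blood cells, was at 6.96 ± 1.80 CPM per kilobase, and the small-conductance channels *Kcnn1* and *Kcnn3* were at 4.50 ± 1.32 and 3.06 ± 0.593. *Kcnn4* was at 8.43 ± 0.510 in wild type of the *Carm1* line and 5.50 ± 1.19 in that of the *Pax3* line, and *Kcnn1* at 3.33 ± 0.229 and 5.67 ± 0.472. *Kcnn4* thus lay above *Kcnn1* in wild type of the first line, while in that of the second, of another strain, they did not differ beyond their spread.

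The stretch-sensitive two-pore channel *Kcnk2* was at 4.36 ± 0.395 CPM per kilobase. The pH-sensitive *Kcnk5* was at 3.32 ± 0.277 and *Kcnk1*, a weak inwardly rectifying two-pore channel, at 3.0 ± 0.557. Over both lines together *Kcnk5* and *Kcnk1* overlapped, but they lay apart in each line, in opposite order. In wild type of the *Carm1* line *Kcnk1* was at 3.42 ± 0.165 and *Kcnk5* at 3.10 ± 0.0799. In that of the *Pax3* line *Kcnk1* was at 2.58 ± 0.469 and *Kcnk5* at 3.53 ± 0.211. Inward rectifiers were led by *Kcnj2* (3.32 ± 0.220), which holds the resting potential of muscle. Its relative *Kcnj12* was at 1.78 ± 0.311 and *Kcnj8*, the pore of the ATP-sensitive channel of vessels, at 1.70 ± 0.585, which overlap.

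**Figure D1:**
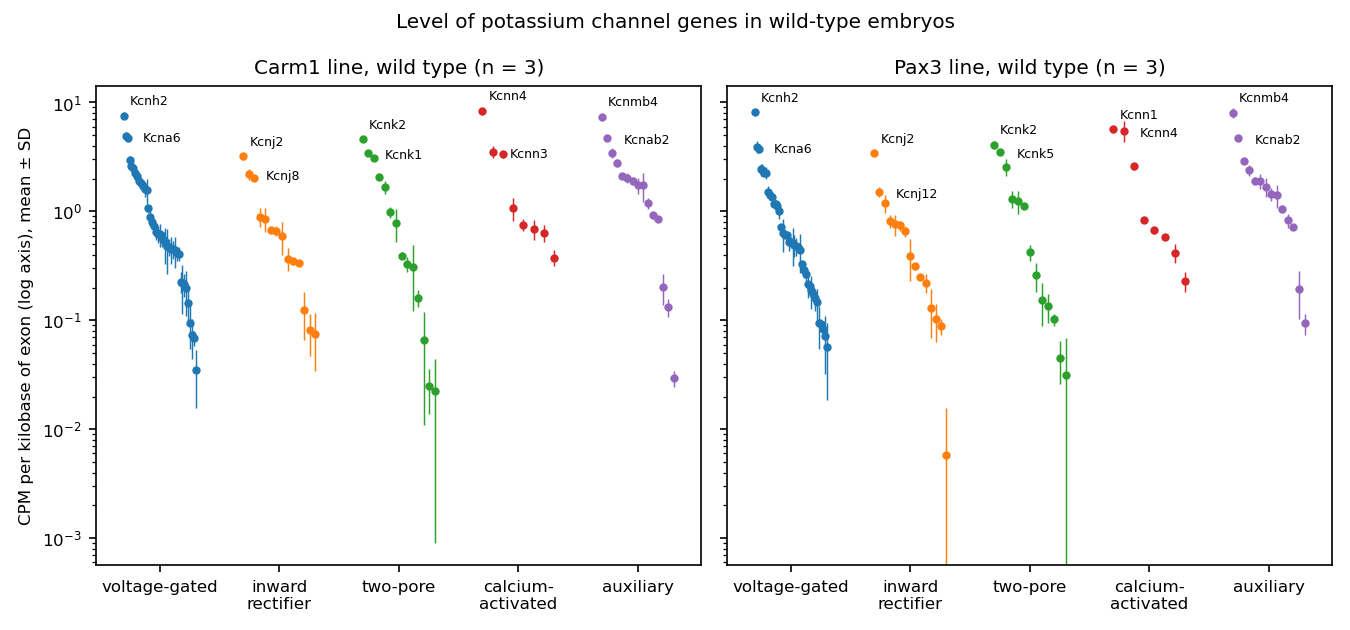
Mean level of each channel gene in wild-type embryos of the *Carm1* line (left) and the *Pax3* line (right), in CPM per kilobase of exon on a log axis, with the SD over 3 libraries, sorted by level within each class. Genes at 0 in all 3 libraries are not drawn, and bars that reach 0 run off the axis. *Kcnh2*, *Kcnn4* and *Kcnmb4* stand at the top of their classes on the left.

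In *Carm1* KO/KO embryos the channel genes that changed were nearly all lower than in wild type. At a Benjamini-Hochberg adjusted *P* below 0.05 in edgeR's quasi-likelihood test, 10 of the 77 genes tested were called (13.0%), 9 lower and 1 higher. Of all 15811 genes tested in this line 13.3% were called, 7.83% lower and 5.49% higher, a share near that of the channel genes. The count was 6 in DESeq2, 4 without wild-type replicate 2 and 6 without KO/KO replicate 1 or 3. The fold change was below 0 in 56 of 77 channel genes (72.7%) and in 49.6% of all genes, with a median log2 fold change of -0.15 against 0.0014 for all genes. That count was 50 to 57 over 15 alternatives, and the difference between the shares was not tested. In whole embryos fewer cells of a type and less RNA per cell cannot be told apart.

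By class, 4 of 13 auxiliary genes tested, 2 of 8 calcium-activated, 3 of 35 voltage-gated and 1 of 9 two-pore genes were called, and the two-pore gene was the one that rose. No inward rectifier of 12 was called by edgeR or DESeq2, and 1 had an unadjusted *P* below 0.05 by either tool. Without wild-type replicate 1 *Kcnj5*, an inward rectifier of heart and brain, was called (log2 fold change -0.65, edgeR adjusted *P* = 0.038). Groups were apart, all KO/KO libraries on 1 side of all wild-type libraries, in 26.0% of channel genes and 30.0% of all genes. KO/KO libraries were all lower in 17 channel genes (15.7% of all genes) and all higher in 3 (14.3% of all genes). The summed level of all channel genes lay between 482 and 513 CPM in KO/KO and between 532 and 557 CPM in wild-type embryos. That sum was 246 to 267 against 272 to 295 CPM for voltage-gated genes, 54.6 to 57.9 against 61.2 to 70.3 CPM for calcium-activated genes and 71.7 to 75.7 against 79.2 to 84.4 CPM for auxiliary genes, 3 classes in which the groups did not overlap. Inward rectifiers, at 45.3 to 46.6 against 45.6 to 49.6 CPM, and two-pore genes, at 61.7 to 69.8 against 64.8 to 68.8 CPM, overlapped. The sums were not tested.

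**Figure D2:**
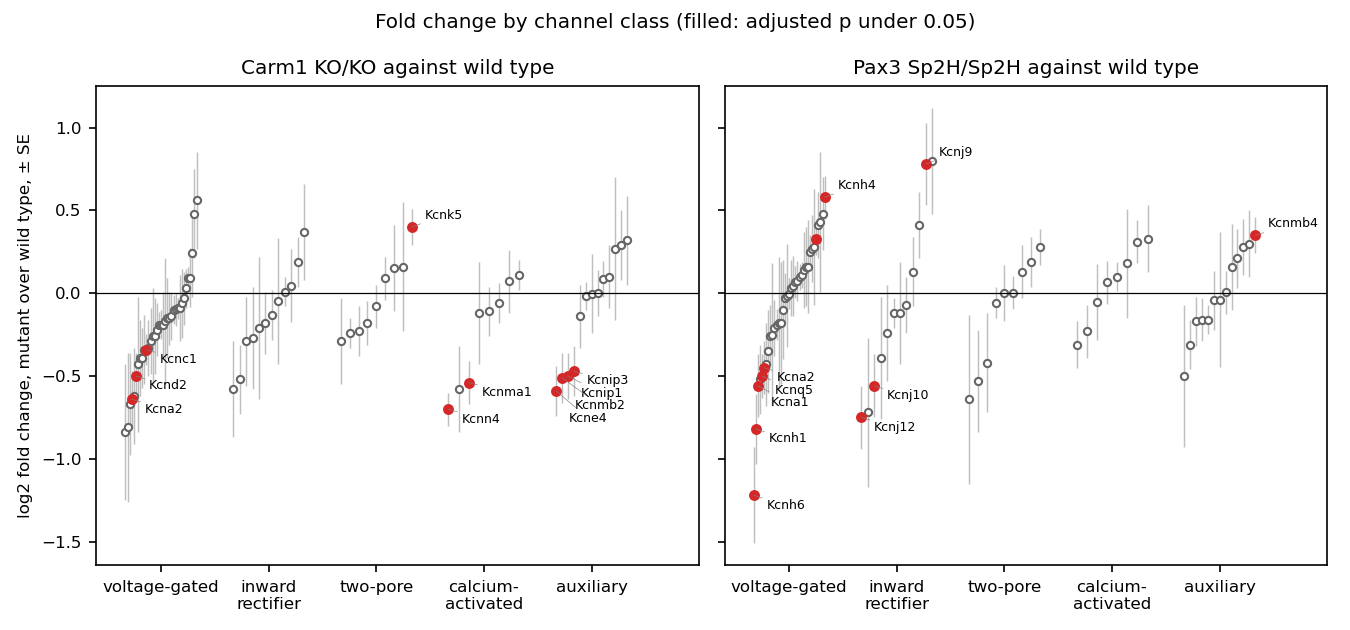
Log2 fold change of each channel gene tested, mutant over wild type, with its standard error, sorted within each class, in the *Carm1* line (left) and the *Pax3* line (right). Filled points are genes with an adjusted *P* below 0.05. On the left 9 of the 10 filled points lie below 0, and on the right 7 of 11.

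The 2 calcium-activated genes called carry the pores of the intermediate-conductance and the BK channel. *Kcnn4* (ENSMUSG00000054342.8, chr7:24370263-24386690) was at 11.1, 9.46 and 11.0 CPM in KO/KO and at 17.4, 18 and 16 CPM in wild-type embryos. All KO/KO libraries lay below all wild-type libraries, and the gene fell by 0.70 on the log2 scale (SE 0.10, edgeR adjusted *P* = 6.2e-06). Counts behind these values were 169 to 203 in KO/KO and 293 to 419 in wild type. Of the 10 markers of erythroid cells, which use this channel, 9 fell and 1, the embryonic globin *Hbb-bh1*, rose. Of all genes tested in this line 7.83% were called lower and 5.49% higher. The mean level of *Hbb-bh1* was 467 CPM in KO/KO and 189 CPM in wild type. Summed levels of all 10, this rise included, overlapped at 1364 to 1488 CPM in KO/KO and 1413 to 1631 CPM in wild type. The sum thus mixes the 9 that fell with the 1 that rose, and no marker was at 0. Lists of other cells moved in both directions. Of 4 mast cell markers tested 3 rose (18.1 to 18.7 against 5.03 to 8.09 CPM, with 1 of the 7 listed at 0), and all 6 markers of hepatocytes, which surround the blood cells of the fetal liver, fell (736 to 858 against 1372 to 1671 CPM). The part of these cells in the change of *Kcnn4* was not tested.

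*Kcnma1*, the BK channel pore, which opens on both calcium and depolarization, was at 6.47, 6.55 and 7.13 CPM in KO/KO and at 10.6, 10.4 and 8.38 CPM in wild-type embryos. The groups did not overlap, and the gene fell by 0.54 (SE 0.13, edgeR adjusted *P* = 0.0039). *Kcnn4* and *Kcnma1* were called under all 15 alternatives in processing, with fold changes of -0.75 to -0.63 and -0.64 to -0.49. *Kcnmb2*, which inactivates the BK channel, was at 4.94, 5.21 and 3.95 against 6.40, 6.96 and 6.67 CPM and fell by 0.51 (SE 0.15, edgeR adjusted *P* = 0.020). The groups did not overlap, but the call was lost without KO/KO replicate 3 (0.13), without wild-type replicate 2 (0.090) and in DESeq2 (0.080). *Kcnmb4*, the BK subunit with the highest level, had a log2 fold change of 0.085 (edgeR adjusted *P* = 0.69), and the small-conductance genes *Kcnn1* and *Kcnn3* had 0.11 and -0.060, none of them called.

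Of the *Kcnd* and *Kcnip* genes, pores and calcium-binding subunits of the A-type channel that delays firing, 3 fell in KO/KO embryos and 4 were not called. Of all genes tested in this line 7.83% were called lower. The genes were grouped after their values were seen and were not tested as a set. *Kcnd2*, a pore of this channel, was at 6.58, 5.37 and 5.65 CPM in KO/KO and at 6.87, 9.37 and 8.47 CPM in wild-type embryos (log2 fold change -0.50, SE 0.14, edgeR adjusted *P* = 0.015). *Kcnip1*, a calcium-binding subunit of these channels, was at 6.53, 6.16 and 5.48 against 9.36, 7.52 and 8.91 CPM (-0.50, SE 0.14, adjusted *P* = 0.012). *Kcnip3*, of the same family and also known as a transcriptional repressor, was at 4.99, 4.70 and 4.53 against 5.87, 6.49 and 7.26 CPM (-0.47, SE 0.15, adjusted *P* = 0.033). In all 3 genes the groups did not overlap, although for *Kcnd2* KO/KO replicate 1 and wild-type replicate 1 lay side by side. The other members of the complex among the channel genes were not called: *Kcnd1* had -0.19, *Kcnd3* -0.19 (adjusted *P* = 0.16), *Kcnip2* -0.0018 and *Kcnip4* -0.14. The transmembrane partners of the complex, which have other symbols, fell as well, *Dpp6* by 0.28 (SE 0.074, adjusted *P* = 0.0079) and *Dpp10* by 0.59 (SE 0.15, adjusted *P* = 0.0079).

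These calls were less stable than that of *Kcnn4*, which was kept in all 15 alternatives. *Kcnip3* was lost in 8 of 15 alternatives, namely DESeq2 (adjusted *P* = 0.12), the replicate block (0.055), a term for Y-linked counts (0.13) and leaving out KO/KO replicate 1 (0.067), 2 (0.096) or 3 (0.11) or wild-type replicate 2 (0.086) or 3 (0.13). The term for Y-linked counts marks only wild-type replicate 3 in the *Carm1* line, so it nearly repeats leaving that library out. *Kcnd2* was lost in DESeq2 (0.066) and without KO/KO replicate 2 (0.096) or 3 (0.067) or wild-type replicate 2 (0.14), and *Kcnip1* without KO/KO replicate 3 (0.074).

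Of the delayed rectifiers, *Kcna2*, a channel of axons, was at 3.45, 5.32 and 5.65 CPM in KO/KO and at 8.18, 8.25 and 5.94 CPM in wild-type embryos. It fell by 0.64 (SE 0.17, edgeR adjusted *P* = 0.010), the groups touching at KO/KO replicate 3 and wild-type replicate 3 without overlap. *Kcnc1*, a channel of fast-firing neurons, was at 14.5, 12.5 and 15.7 against 17.7, 19.0 and 17.2 CPM and fell by 0.34 (SE 0.095, edgeR adjusted *P* = 0.014). *Kcna2* was lost without KO/KO replicate 1 (adjusted *P* = 0.12) or wild-type replicate 2 (0.083), and *Kcnc1* without KO/KO replicate 2 (0.13) or wild-type replicate 2 (0.098) and in DESeq2 (0.057). The voltage-gated genes *Kcnh2* and *Kcna6*, of high level, were not called: *Kcnh2* had a log2 fold change of 0.093 (SE 0.067) and *Kcna6* -0.19 (SE 0.079, adjusted *P* = 0.10). *Kcna6* was called without wild-type replicate 3 (-0.26, adjusted *P* = 0.027) and with a term for Y-linked counts (0.029), which in this line is not a separate alternative.

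*Kcne4*, a single-span subunit that inhibits some voltage-gated channels, was at 4.28, 5.04 and 5.48 CPM in KO/KO and at 6.87, 7.35 and 8.04 CPM in wild-type embryos. It fell by 0.59 (SE 0.15, edgeR adjusted *P* = 0.0049) with no overlap, and was lost by a small margin without KO/KO replicate 1 (0.0501). *Kcnk5*, a two-pore channel best known from the kidney, was the one gene that rose, from 10.5, 10.2 and 10.8 CPM in wild type to 14.7, 11.8 and 15.3 CPM in KO/KO embryos (0.40, SE 0.11, adjusted *P* = 0.011). KO/KO replicate 2 lay nearest to wild type. The call on *Kcnk5* was lost without KO/KO replicate 1 (0.076) or 3 (0.092) or wild-type replicate 2 (0.055). The leading two-pore gene, *Kcnk2*, was at 16.5, 15.3 and 17.7 against 18.3, 20.4 and 19.4 CPM, with no overlap but no call (-0.24, SE 0.088, adjusted *P* = 0.073), and was called without wild-type replicate 1 (-0.27, adjusted *P* = 0.042).

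The largest fold changes without a call among genes of at least 1 CPM were those of *Kcns1*, a silent subunit that assembles with other pores (-0.84, SE 0.41), *Kcnh3* (-0.67, SE 0.31) and *Kcna4*, an A-type channel (-0.62, SE 0.29). *Kcns1* was called without KO/KO replicate 3 (log2 fold change -1.57, edgeR adjusted *P* = 0.035), which at 1.35 CPM lay above the other KO/KO libraries at 0.384 and 0.504 CPM. *Kcnh3* was called with a term for Y-linked counts (-0.91, edgeR adjusted *P* = 0.048). It was not called without wild-type replicate 3, a near repeat of that fit (-0.91, adjusted *P* = 0.0505).

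**Figure D3:**
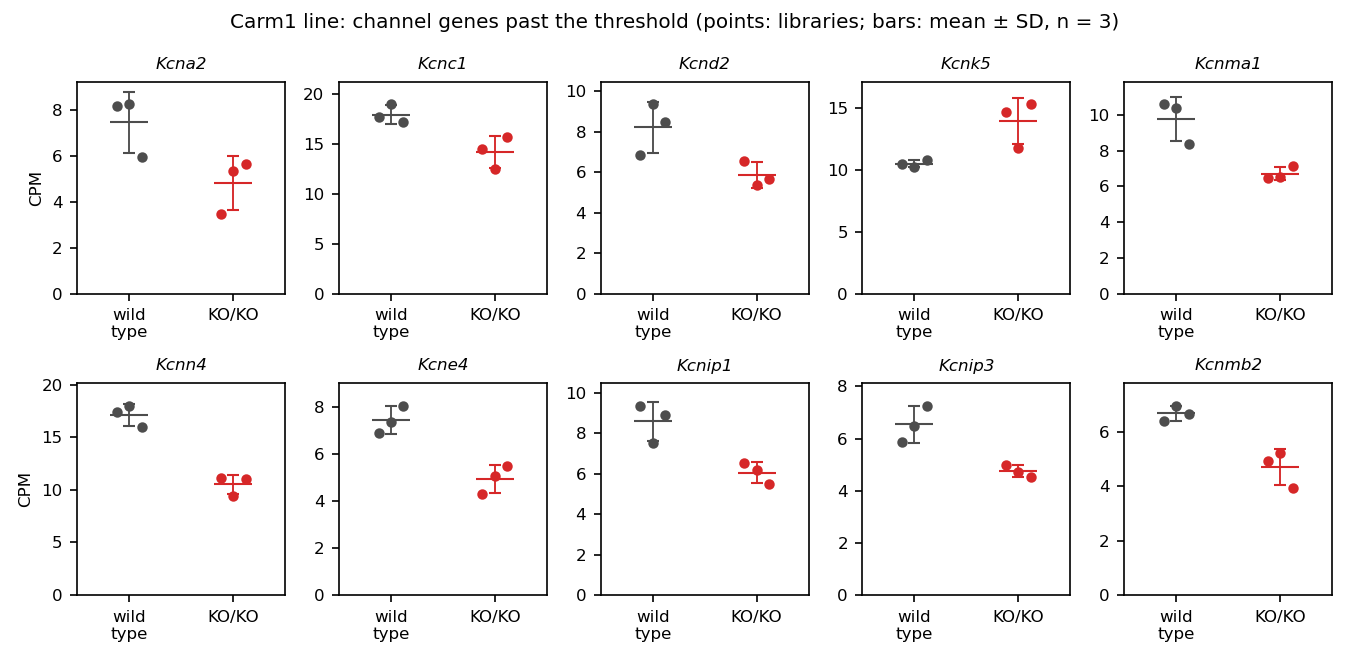
CPM in each library (points) with mean and SD (bars, n = 3) of the 10 channel genes with an adjusted *P* below 0.05 in the *Carm1* line. Each axis starts at 0. In every panel the KO/KO libraries lie on one side of the wild-type libraries, above them for *Kcnk5* and below them for the other 9.

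Markers of several cell types also changed in this line, in which 7.83% of all genes tested were called lower and 5.49% higher. Of 14 markers of neurons 6 fell in *Carm1* KO/KO embryos and none rose, all 14 fold changes were below 0 (median -0.16), and the summed level was 2054 to 2110.3 CPM against 2269 to 2409 CPM in wild type. Of 10 markers of sensory neurons 5 fell (166 to 170.1 against 192 to 205 CPM), and all 8 markers of neural progenitors rose (1164 to 1219 against 880.2 to 939 CPM). Of 12 markers of skeletal muscle 8 fell (447 to 461 against 616 to 687 CPM) and of 10 of cardiac muscle 5 fell (313 to 333 against 378 to 433 CPM). No marker of these lists was at 0. The part of these cell types in the channel genes was not tested.

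In *Pax3* Sp2H/Sp2H embryos channel genes changed in both directions. At an edgeR adjusted *P* below 0.05, 11 of 77 genes tested were called (14.3%), 7 lower and 4 higher. Of all 15724 genes 24.5% were called, 10.5% lower and 14.0% higher, and the difference between the shares was not tested. The count was 7 in DESeq2, 7 with length and GC offsets, and 7 without wild-type replicate 1 or Sp2H/Sp2H replicate 2. Fold changes were below 0 in 41 of 77 channel genes (53.2%) and in 50.4% of all genes, and the median log2 fold change was -0.015. The summed level of all channel genes was 474 to 491 CPM in Sp2H/Sp2H and 473 to 484 CPM in wild-type embryos, so the groups overlapped.

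By class, 7 of 35 voltage-gated, 3 of 12 inward rectifier and 1 of 13 auxiliary genes were called. None of 9 two-pore genes was called by edgeR or DESeq2, with 1 at an unadjusted *P* below 0.05 by either tool, and none of 8 calcium-activated genes, with 2 by edgeR and 1 by DESeq2. *Kcnk10*, a stretch-sensitive two-pore channel, had a log2 fold change of 0.28 (edgeR adjusted *P* = 0.066) and was called with length and GC offsets (0.40, adjusted *P* = 0.011) and without wild-type replicate 2 (0.33, adjusted *P* = 0.046). Groups were apart in 33.8% of channel genes and 39.6% of all genes. Sp2H/Sp2H libraries were all lower in 16 channel genes (18.9% of all genes) and all higher in 10 (20.7% of all genes). Among the voltage-gated genes the ether-a-go-go family *Kcnh*, of which *Kcnh1* to *Kcnh8* were all tested, held 3 of the 7 calls. Its other members, *Kcnh2* among them, were not called. Of all genes tested 24.5% were called. The family was singled out after the calls were seen and was not tested as a set.

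*Kcnh6*, a channel of the same subfamily as *Kcnh2*, had the largest fold change of the channel genes called. It was at 0.983, 0.865 and 0.891 CPM in Sp2H/Sp2H and at 1.71, 3.01 and 1.80 CPM in wild-type embryos, from 19 to 22 and 35 to 52 counts. The groups did not overlap, wild-type replicate 2 lay above the other libraries, and the gene fell by 1.22 on the log2 scale (SE 0.29, edgeR adjusted *P* = 0.0028). *Kcnh1*, the ether-a-go-go channel proper, was at 1.61, 2.0 and 2.16 against 3.46, 3.59 and 3.18 CPM and fell by 0.82 (SE 0.21, adjusted *P* = 0.0049). *Kcnh4*, of the subfamily of slow channels of the brain, rose from 5.51, 5.79 and 4.98 CPM to 7.77, 8.60 and 7.80 CPM (0.58, SE 0.13, adjusted *P* = 0.0021). Neither gene had overlapping groups. *Kcnh2*, at 36.5 to 39.9 CPM in wild type, had a log2 fold change of 0.098 (SE 0.078, adjusted *P* = 0.39), so members of the family differed in direction or were not called.

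*Kcnq5*, a channel of the M current in brain and muscle, was at 5.32, 5.42 and 5.64 CPM in Sp2H/Sp2H and at 7.95, 8.28 and 7.08 CPM in wild-type embryos. It fell by 0.50 (SE 0.13, edgeR adjusted *P* = 0.0063), with no overlap. *Kcnh6*, *Kcnh1*, *Kcnh4*, *Kcnq5* and the inward rectifier *Kcnj12* were called under all 15 alternatives. *Kcna1* and *Kcna2*, which form mixed channels along axons, were at 2.99, 2.37 and 3.60 against 4.58, 5.09 and 3.69 CPM (-0.56, SE 0.19, adjusted *P* = 0.030) and at 4.33, 4.64 and 3.60 against 6.93, 5.33 and 4.89 CPM (-0.45, SE 0.16, adjusted *P* = 0.0474). The groups of both genes came close without overlap. *Kcna2* was lost in 9 of 15 alternatives, among them DESeq2 (0.098), length and GC offsets (0.18) and leaving out wild-type replicate 1 (log2 fold change -0.28, adjusted *P* = 0.28) or 2 (0.057) or Sp2H/Sp2H replicate 1 (0.089), 2 (0.0526) or 3 (0.20). *Kcna1* was lost in 6, namely DESeq2 (0.063), length and GC offsets (0.064) and leaving out wild-type replicate 1 (0.085) or 2 (0.12) or Sp2H/Sp2H replicate 1 (0.076) or 2 (0.16).

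*Kcnmb4* rose from 11.6, 9.67 and 11.7 CPM to 13.7, 12.9 and 15.7 CPM (0.35, SE 0.11, edgeR adjusted *P* = 0.019), with no overlap. With length and GC offsets its fold change was -0.0047, and the call was lost without wild-type replicate 2 (0.072) or Sp2H/Sp2H replicate 3 (0.15). The exons of *Kcnmb4* share 26.0% of their length with the antisense gene *Kcnmb4os1* and 49.3% with *Kcnmb4os2*, and whether the counting used strand is not stated, so reads of the gene and its partners cannot be told apart.

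Among inward rectifiers, *Kcnj12*, a channel of the resting potential of muscle, was at 2.46, 1.91 and 3.05 CPM in Sp2H/Sp2H and at 3.71, 4.28 and 4.51 CPM in wild-type embryos. It fell by 0.75 (SE 0.19, edgeR adjusted *P* = 0.0060), with no overlap, while its better expressed relative *Kcnj2* had -0.12 (SE 0.089, adjusted *P* = 0.33). *Kcnj10*, the main channel by which glia take up potassium, was at 2.64, 2.18 and 3.31 against 4.49, 3.94 and 3.65 CPM and fell by 0.56 (SE 0.19, adjusted *P* = 0.031). Its groups came close at Sp2H/Sp2H replicate 3 and wild-type replicate 3. *Kcnj9*, a G-protein-gated channel of neurons, rose from 1.17, 1.16 and 1.33 CPM to 2.06, 1.96 and 2.29 CPM (0.78, SE 0.25, adjusted *P* = 0.024), from 20 to 31 and 43 to 54 counts. *Kcnj9* and *Kcnj10* lie side by side on chromosome 1, at chr1:172320501-172329318 and chr1:172341210-172374085, and moved in opposite directions.

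Neither neighbour was called in every alternative. *Kcnj10* was lost in DESeq2 (adjusted *P* = 0.070), with length and GC offsets (0.079) and without wild-type replicate 1 (0.13) or 2 (0.0535) or Sp2H/Sp2H replicate 1 (0.090) or 2 (0.15). *Kcnj9* was lost in DESeq2 (0.068), with length and GC offsets (0.063) and without wild-type replicate 1 (0.068) or Sp2H/Sp2H replicate 1 (0.061) or 3 (0.10).

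The largest fold changes without a call among genes of at least 1 CPM were those of the inward rectifier *Kcnj14* (0.80, SE 0.32, edgeR adjusted *P* = 0.064), the two-pore channel *Kcnk9* (-0.53, SE 0.31) and the delayed rectifier *Kcnb2* (-0.52, SE 0.21, adjusted *P* = 0.069). *Kcnj14* was at 1.21, 2.50 and 1.91 CPM in Sp2H/Sp2H and at 0.732, 0.868 and 1.55 CPM in wild-type embryos, which overlap, and was called without wild-type replicate 3 (1.23, adjusted *P* = 0.017) or Sp2H/Sp2H replicate 1 (1.04, 0.026), with no filter (0.034), with the replicate block (0.042) and with a term for Y-linked counts (0.039). *Kcnb2* was called in one fit of all 12 libraries (0.0474).

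**Figure D4:**
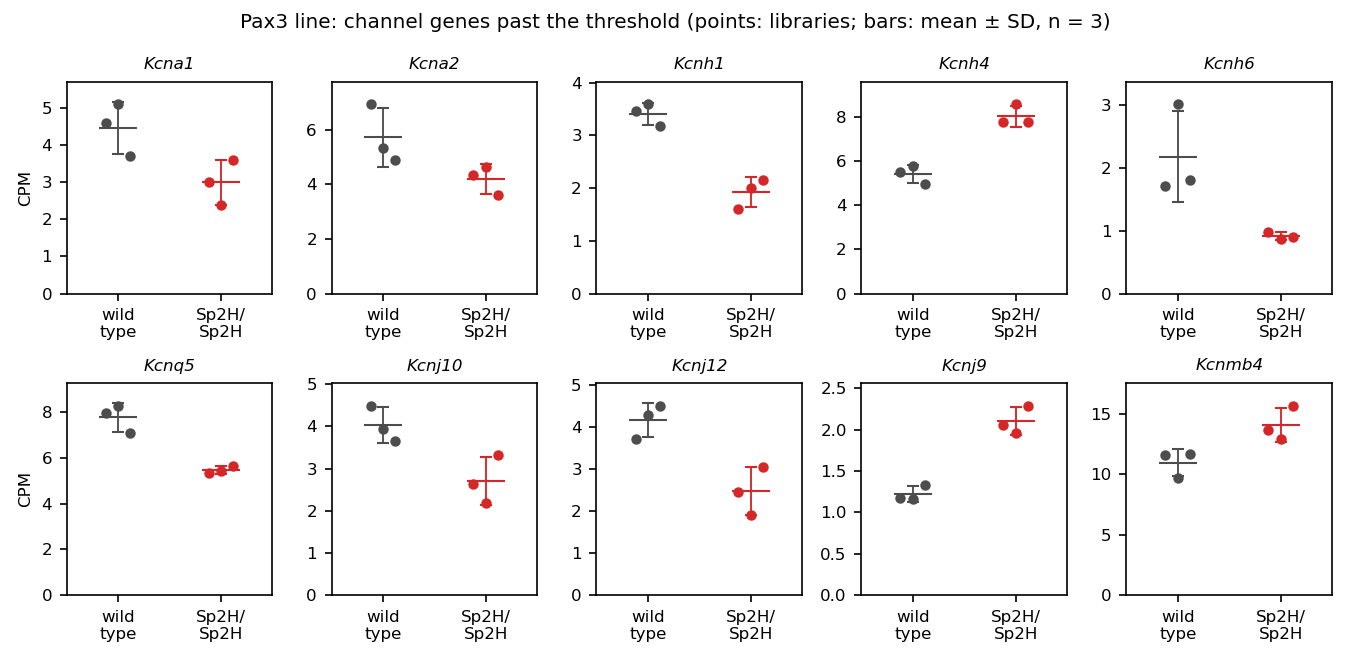
CPM in each library (points) with mean and SD (bars, n = 3) of 10 of the 11 channel genes with an adjusted *P* below 0.05 in the *Pax3* line. Each axis starts at 0. The Sp2H/Sp2H libraries lie below all wild-type libraries in 7 panels and above them in 3, *Kcnh4*, *Kcnj9* and *Kcnmb4*.

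Markers of several cell types known to need *Pax3* fell in these embryos, in which 10.5% of all genes tested were called lower and 14.0% higher. Of 12 markers of skeletal muscle tested 9 fell (summed level 185 to 212 CPM against 340.1 to 399 CPM in wild type), of 10 markers of sensory neurons 7 fell (106 to 115 against 154 to 159 CPM) and of 8 markers of Schwann cell precursors and glia 4 fell (70.0 to 71.3 against 100 to 107 CPM). Melanoblasts also need *Pax3*, but of their 5 markers tested none was called by edgeR or DESeq2 or had an unadjusted *P* below 0.05 by edgeR (11.6 to 13.9 against 13.9 to 14.7 CPM). No marker of these lists was at 0. Of 14 markers of neurons 6 fell and 2 rose, of 10 of cardiac muscle 6 rose, and of 8 of neural progenitors 5 rose (1007 to 1138 against 951 to 1033 CPM). Their part in the lower levels of *Kcnj12*, *Kcnq5*, *Kcna1*, *Kcna2* and *Kcnj10* was not tested.

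Between the lines, 20 channel genes were called in either and 1, *Kcna2*, in both, lower each time. The share of all genes called in both lines is not given here, so this count is not read as a result about the channel genes. Of the other genes called lower in the *Carm1* line, *Kcnma1*, *Kcnmb2* and *Kcnip1* were also lower in all Sp2H/Sp2H libraries, without a call (-0.31, -0.31 and -0.16). *Kcnn4* and *Kcnc1* were higher in all Sp2H/Sp2H libraries, also without a call. Of all genes tested in the *Pax3* line, 18.9% were lower and 20.7% higher in all Sp2H/Sp2H libraries. These directions are thus not read as a result about the channel genes. The difference of the fold changes was tested with an interaction term over the 12 libraries together. Of 81 channel genes tested 6 differed between the lines (7.41%) at an edgeR adjusted *P* below 0.05, against 19.1% of all 16292 genes. The difference was called above 0 in 2 of the 81, against 8.65% of all genes, and below 0 in 4 of the 81, against 10.5%. Among all channel genes tested the difference was below 0 in 49 (60.5%), against 50.2% of all genes. The lines differ in strain as well as in the gene mutated, and the 2 cannot be told apart.

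Each difference below is the *Carm1* fold change minus the *Pax3* fold change on the log2 scale. *Kcnn4* was lower in *Carm1* KO/KO embryos, and in the *Pax3* line it was at 14.9, 13.1 and 13.1 CPM in Sp2H/Sp2H and 12.5, 12.6 and 8.37 CPM in wild-type embryos (0.31, SE 0.13, edgeR adjusted *P* = 0.080), a difference of -1.0 (SE 0.17, adjusted *P* = 8.5e-05). In the *Pax3* line *Kcnn4* was called without wild-type replicate 1 (0.41, adjusted *P* = 0.045) or 2 (0.40, 0.046), with no filter (0.034) and with the replicate block (0.036). *Kcnc1* was at 12.7, 13.0 and 13.9 against 12, 10.4 and 10.9 CPM in the *Pax3* line (0.25, SE 0.10), with a difference of -0.58 (SE 0.14, adjusted *P* = 0.0038). *Kcne4* was at 4.07, 4.0 and 4.88 against 2.78, 4.52 and 3.95 CPM there, which overlap, with a difference of -0.80 (SE 0.23, adjusted *P* = 0.013). These 3 genes fell in the *Carm1* line and were not called in the *Pax3* line, where their estimates were above 0.

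*Kcnh1* was at 4.17, 4.03 and 5.01 CPM in *Carm1* KO/KO and 4.03, 3.48 and 4.87 CPM in wild-type embryos, which overlap, and differed by 0.92 (SE 0.26, edgeR adjusted *P* = 0.012). *Kcnh4* was at 9.05, 9.01 and 9.01 against 10.3, 7.95 and 8.52 CPM in the *Carm1* line and differed by -0.54 (SE 0.17, adjusted *P* = 0.027). *Kcnk5* was at 11.3, 12.4 and 12.3 against 11.2, 12.5 and 12.3 CPM in the *Pax3* line and differed by 0.41 (SE 0.15, adjusted *P* = 0.049). The differences of *Kcnn4*, *Kcnc1* and *Kcnh1* passed the threshold under all 20 alternatives, whereas that of *Kcnk5* was lost in 15, with DESeq2 (0.074) and without 10 of the 12 libraries in turn among them, that of *Kcnh4* in 6 and that of *Kcne4* in 2. *Kcnh4* was lost in DESeq2 (0.0512), with length and GC offsets (0.087) and without KO/KO replicate 2 (0.0524) or wild-type replicate 1 (0.096) of the *Carm1* line or wild-type replicate 3 (0.072) or Sp2H/Sp2H replicate 2 (0.065) of the *Pax3* line. *Kcne4* was lost without wild-type replicate 1 (0.0537) or Sp2H/Sp2H replicate 3 (0.0538) of the *Pax3* line.

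**Figure D5:**
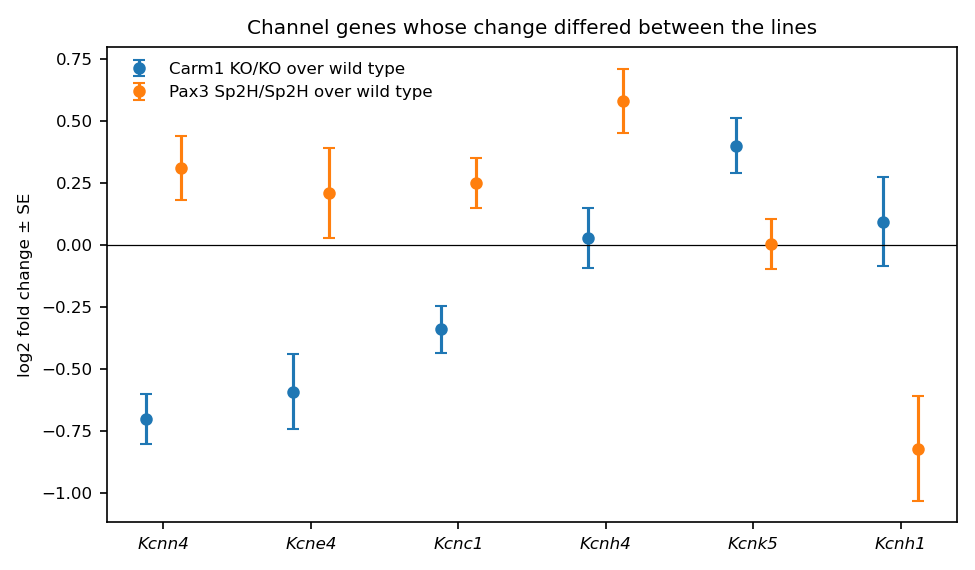
Log2 fold change with its standard error of the 6 channel genes whose change differed between the lines, in *Carm1* KO/KO and in *Pax3* Sp2H/Sp2H embryos, each against the wild type of its line. *Kcnn4*, *Kcne4* and *Kcnc1* lie below 0 in the *Carm1* line and above 0 in the *Pax3* line, where they were not called, and *Kcnh1* lies below 0 in the *Pax3* line.

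Genes that work with these channels were also described, from lists of partner subunits and of other channels that set excitability. Of the assembly partners, 2 of 6 tested fell in the *Carm1* line and 1 of 7 in the *Pax3* line, and none rose. *Dpp6*, of the A-type channel complex, fell in both, by 0.28 (SE 0.074) and 0.31 (SE 0.080, edgeR adjusted *P* = 0.0062).

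Sodium channel genes, which start the action potential that potassium channels end, fell in 4 of 14 cases in each line and rose in none. They were *Scn1a* (-0.48), *Scn3a* (-0.17), *Scn9a* (-0.27) and the beta subunit *Scn3b* (-0.33) in the *Carm1* line, and the muscle channel *Scn4a* (-1.62), *Scn7a* (-1.06) and the sensory neuron channels *Scn9a* (-0.75) and *Scn10a* (-2.04) in the *Pax3* line. Of 24 calcium channel genes tested 5 fell and none rose in *Carm1* KO/KO embryos, with the T-type channel *Cacna1g* at 212 ± 13.8 against 291 ± 18.3 CPM (-0.45, SE 0.049, edgeR adjusted *P* = 7.2e-08, n = 3) and *Cacna1e* (-0.47), *Cacna1b* (-0.29), *Cacna2d1* (-0.24) and *Cacng7* (-0.25) lower. In *Pax3* Sp2H/Sp2H embryos 4 fell, *Cacna1s* (-1.15) and *Cacng1* (-1.16) of skeletal muscle, *Cacna1e* (-0.25) and *Cacna2d1* (-0.26), and 4 rose, *Cacna1g* (0.19), *Cacna1i* (0.58), *Cacnb3* (0.17) and *Cacng7* (0.18). Of all genes tested 7.83% were called lower and 5.49% higher in the *Carm1* line, and 10.5% and 14.0% in the *Pax3* line. DESeq2 called 1 sodium channel gene in the *Carm1* line and 3 in the *Pax3* line, and 4 calcium channel genes in each. Near the threshold lay *Scn3a* in the *Carm1* line (edgeR adjusted *P* = 0.0476) and *Cacng7* in the *Pax3* line (0.0499).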

How the data were processed

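Polyadenylated RNA from 12 whole E12.5 embryos was sequenced as paired reads of 150 bp. The authors aligned the reads to mm10 with STAR and counted those on exons with featureCounts (versions not given in the sources used here), and deposited raw counts per gene, whole numbers without normalization or pooling. Strand setting and treatment of multi-mapping reads are not given in the sources used here. All columns of both tables were used.

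Here counts were scaled by TMM and genes filtered by filterByExpr in edgeR 4.0.16 (R 4.3.3). Each line was tested on its own by the quasi-likelihood test with robust dispersions and Benjamini-Hochberg adjustment over all genes tested (threshold 0.05). The interaction used all 12 libraries. CPM are TMM-scaled. Total counts of 17183344 to 23518692 per library set the precision of counting, and the floor of 3 counts covers counting error only. Standard errors of fold changes come from the fit and, like the SDs, include the spread between embryos. Nothing says that libraries share or differ in litter. *P* values set the difference of the groups against the spread between these embryos. They take the embryos as independent, which cannot be checked here. Exon lengths, coordinates and coding sequences came from GENCODE M21 (GRCm38, the build of mm10), which holds 21777 of the symbols and, under an older symbol, 1257 more. The 92 channel genes all matched.

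Channel classes follow symbols, with sodium-activated *Kcnt* and pH-activated *Kcnu* genes placed among the calcium-activated genes. Genes named are the mutated genes, members called in a line or between lines, the 3 members of highest level per kilobase in each class, the 3 largest fold changes not called in each line above a mean of 1 CPM, and partner genes called. Other genes (*Kcnd1*, *Kcnd3*, *Kcnh8*, *Kcnip2*, *Kcnip4*, *Kcna10*, *Kcnj5*, *Kcnk10*) were named after their values were seen. A few genes and sequences that the rule would name are not reported here, though the counts include them. The members and lists were chosen with earlier results of these data known. Alternatives were DESeq2 1.42.0, RLE and upper-quartile scaling, no filter, at least 10 counts in each library, a joint fit of both lines, a block for the replicate number, a term for libraries with at least 100 Y-linked counts, offsets for length and GC content (splines with 5 degrees of freedom) and leaving out each library. In the *Carm1* line the Y-linked term marks only wild-type replicate 3, so it nearly repeats leaving that library out. The tests were first run on simulated counts with known changes.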

Additional observations from a re-analysis of the deposited data

Results flagged for a closer look

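For 6 channel genes the change in *Carm1* KO/KO embryos differed from that in *Pax3* Sp2H/Sp2H embryos by the interaction test of edgeR (Benjamini-Hochberg adjusted over all 16292 genes). The values below are the log2 fold change in the *Carm1* line minus that in the *Pax3* line. *Kcnn4* (-1.0, adjusted *P* = 8.5e-05), *Kcnc1* (-0.58, 0.0038), *Kcne4* (-0.80, 0.013) and *Kcnh4* (-0.54, 0.027) were lower in the *Carm1* comparison, and *Kcnh1* (0.92, 0.012) and *Kcnk5* (0.41, 0.049) were higher. Of these, *Kcnn4*, *Kcnc1* and *Kcnh1* kept an adjusted *P* of at most 9.3e-04, 0.019 and 0.044 in 20 alternatives. Strain and mutation cannot be told apart in this comparison.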

How the results depend on the processing

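The number of channel genes called moved with the test. In the *Carm1* line it was 10, and 6 in DESeq2, all of them among the 10, and between 4 and 12 when 1 library was left out, lowest without wild-type replicate 2 and at 6 without KO/KO replicate 1 or 3. In the *Pax3* line it was 11, and 7 in DESeq2, all of them among the 11, 7 with length and GC offsets, 5 of them among the 11, and between 7 and 12 when 1 library was left out, lowest without wild-type replicate 1 or Sp2H/Sp2H replicate 2. The number that differed between the lines was 6, and 4 to 7 with 1 library left out, and with length and GC offsets 8, 4 in each direction. With the replicate number as a block the counts were 9, 13 and 5, and libraries of the same number did not all deviate together (correlations of -0.042 to 0.001 in the *Carm1* line and of 0.133, -0.092 and 0.227 in the *Pax3* line), so the numbers were not taken to pair the embryos. In CPM, not per kilobase, the classes made up 50.8% (voltage-gated), 15.4% (auxiliary), 12.7% (calcium-activated), 12.2% (two-pore) and 8.91% (inward rectifier) of the summed level, since the genes differ in length. Fold changes near 0 turned sign. In the *Carm1* line these were *Kcnh1*, at -0.0056 without KO/KO replicate 3 and between -0.023 and 0.24 over all libraries left out in turn, and *Kcnh4*, between -0.049 and 0.13. In the *Pax3* line *Kcnk5* was at -0.00050 with RLE scaling, -0.0060 in one fit of all 12 libraries, -0.050 with length and GC offsets and between -0.044 and 0.046 with 1 library left out. *Kcnmb4* was called in that line and turned to -0.0047 with length and GC offsets, and the cause was not tested. No scaling moved the median fold change of all genes by over 0.1. The 15 channel genes not tested in a line held at most 18 counts in a library, which limits the changes that can be seen to large ones. With no filter 90 and 91 of the 92 were tested, and the calls gained within the lines were *Kcnj14* and *Kcnn4* in the *Pax3* line, both also tested with the filter.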
